A study of Mus musculus with 6 samples.

Results

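Activins are dimeric ligands of the TGF-β family, and the genes described here encode their subunits, their receptors and the follistatins that trap them, measured in lung endothelial cells (ECs) of mice with breast cancer metastases. The family holds 9 genes, namely Inha, Inhba, Inhbb, Fst, Fstl3, Acvr1, Acvr1b, Acvr2a and Acvr2b. Every array probe set annotated to a single one of these symbols was taken, which gave 18 of 45101 probe sets and 9 of 18194 genes. One further probe set (1457451_at) is annotated to both Acvr2a and Orc4 and was left out of the family. In shTNC lungs, the activin β subunit genes Inhba and Inhbb had lower mean levels and the type II receptor Acvr2b had a higher one, while no member passed the adjusted threshold.

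All mice were immunodeficient NSG animals aged 6 to 8 weeks, and their lungs held metastases of MDA231-LM2, a line selected from human MDA-MB-231 breast cancer cells for its metastatic ability. In the shControl group (n = 3) the injected cancer cells expressed a control short hairpin RNA, and in the shTNC group (n = 3) they expressed a hairpin against TNC, which encodes the matrix glycoprotein tenascin C. Cancer cells were given intravenously, lungs were taken on day 20, and ECs were sorted from whole lungs as CD31+ cells after blood, epithelial, fibroblast and GFP-labelled cancer cells had been gated out. The hairpin acts in the human cancer cells and not in the profiled mouse ECs, so no mouse gene on these arrays checks the knockdown. The sort took ECs of the whole lung, whether near a metastasis or not, and no lung without metastases is among these samples. The samples are labelled as biological replicates, with 1 array each.

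An activin is a dimer of β subunits: Inhba encodes βA and Inhbb encodes βB, so that the βB homodimer is activin B. When the α subunit, encoded by Inha, replaces one β subunit, the product is an inhibin, which competes with activins for type II receptors. An activin first binds a type II receptor (Acvr2a or Acvr2b), which then activates a type I receptor such as Acvr1b, and SMAD2 and SMAD3 carry the signal to the nucleus. Follistatin (Fst) and follistatin-like 3 (Fstl3) bind activins outside the cell and keep them from their receptors. In the study, Inhbb was followed as a secreted EC product that acts on cancer cells. By qPCR on isolated lung ECs, the authors also reported that its induction with metastases depended on TNC. From microarrays of ECs with shControl or shTNC metastases, they reported that most genes of a secreted-protein set were repressed with TNC knockdown. Inhbb belongs to that set. The comparison asks how lung ECs differ with TNC depletion in the cancer cells. The authors found less lung colonisation with that depletion, so the metastatic load may differ between the groups. Load and TNC loss cannot be told apart here.

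The upstream windows of Inhbb, Inhba and Acvr2b are shown because these are the genes whose probe sets differed at an unadjusted p under 0.05. Each line is the 250 bases just before the annotated RefSeq start on the gene's own strand (GRCm38.p6), outside the transcribed gene. Capitals mark matches, on either strand, to the motifs searched.
Inhbb, chr1:119422249-119422498, minus strand: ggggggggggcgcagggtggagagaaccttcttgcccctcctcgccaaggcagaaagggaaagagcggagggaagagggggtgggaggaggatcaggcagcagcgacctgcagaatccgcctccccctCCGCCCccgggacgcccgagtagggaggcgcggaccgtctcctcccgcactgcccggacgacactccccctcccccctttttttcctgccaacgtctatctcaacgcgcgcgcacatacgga
Inhba, chr13:16011601-16011850, plus strand: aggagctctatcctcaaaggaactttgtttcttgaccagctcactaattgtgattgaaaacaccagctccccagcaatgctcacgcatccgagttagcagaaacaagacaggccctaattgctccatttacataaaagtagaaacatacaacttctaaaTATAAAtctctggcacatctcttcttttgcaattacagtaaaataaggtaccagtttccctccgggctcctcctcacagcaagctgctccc
Acvr2b, chr9:119401928-119402177, plus strand: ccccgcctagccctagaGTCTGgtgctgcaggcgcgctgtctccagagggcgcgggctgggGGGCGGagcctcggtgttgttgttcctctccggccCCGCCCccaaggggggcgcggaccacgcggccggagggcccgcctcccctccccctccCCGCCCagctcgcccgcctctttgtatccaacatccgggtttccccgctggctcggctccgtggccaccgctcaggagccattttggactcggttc
The marked match in Inhbb is the Sp1-type motif GGGCGG. In Inhba the capitals are TATAAA, the core of the TATA motif. Acvr2b holds 3 matches to GGGCGG and, nearest the left end, 1 to CAGAC, the short motif that SMAD proteins bind. Searched as well on both strands were TGANTCA (AP-1), TGACGTCA (CRE), CACGTG (E-box) and 1 form of the NF-kB motif, and these are not in the 3 windows. No 2 matches overlapped in these windows. The upstream windows of the β subunit genes differ in base composition, with 68.0% G and C for Inhbb and 43.2% for Inhba, against 72.8% for Acvr2b. Among 32851 RefSeq windows of the same length, GGGCGG occurs in 32.7%, TATAAA in 12.4% and CAGAC in 42.2%. The AP-1, CRE, E-box and NF-kB forms occur in 6.75%, 1.55%, 6.02% and 1.41% of them. Over the family, 8 of 9 genes have such a window. GGGCGG occurs in 6 of these 8 (Inhbb, Fstl3, Acvr1, Acvr1b, Acvr2a and Acvr2b), CAGAC in 4 (Inha, Fstl3, Acvr2a and Acvr2b), TATAAA in Inhba and Fstl3, and CACGTG in Acvr1b alone. These matches describe letters in the windows and do not show that a factor binds there.

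Levels are log2 values per probe set, differences are shTNC minus shControl with the standard error (SE) of limma, and intervals are 95% confidence intervals. Levels of different probe sets are not comparable with each other, since probes differ in brightness at the same amount of RNA. A mean under 7.48 was called near background, a level that 95% of the 43 probe sets for olfactory receptors do not exceed. Of the member probe sets, 16 lay above that level and 2 lay near background, and every gene had at least 1 above it.

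**Figure D1:**
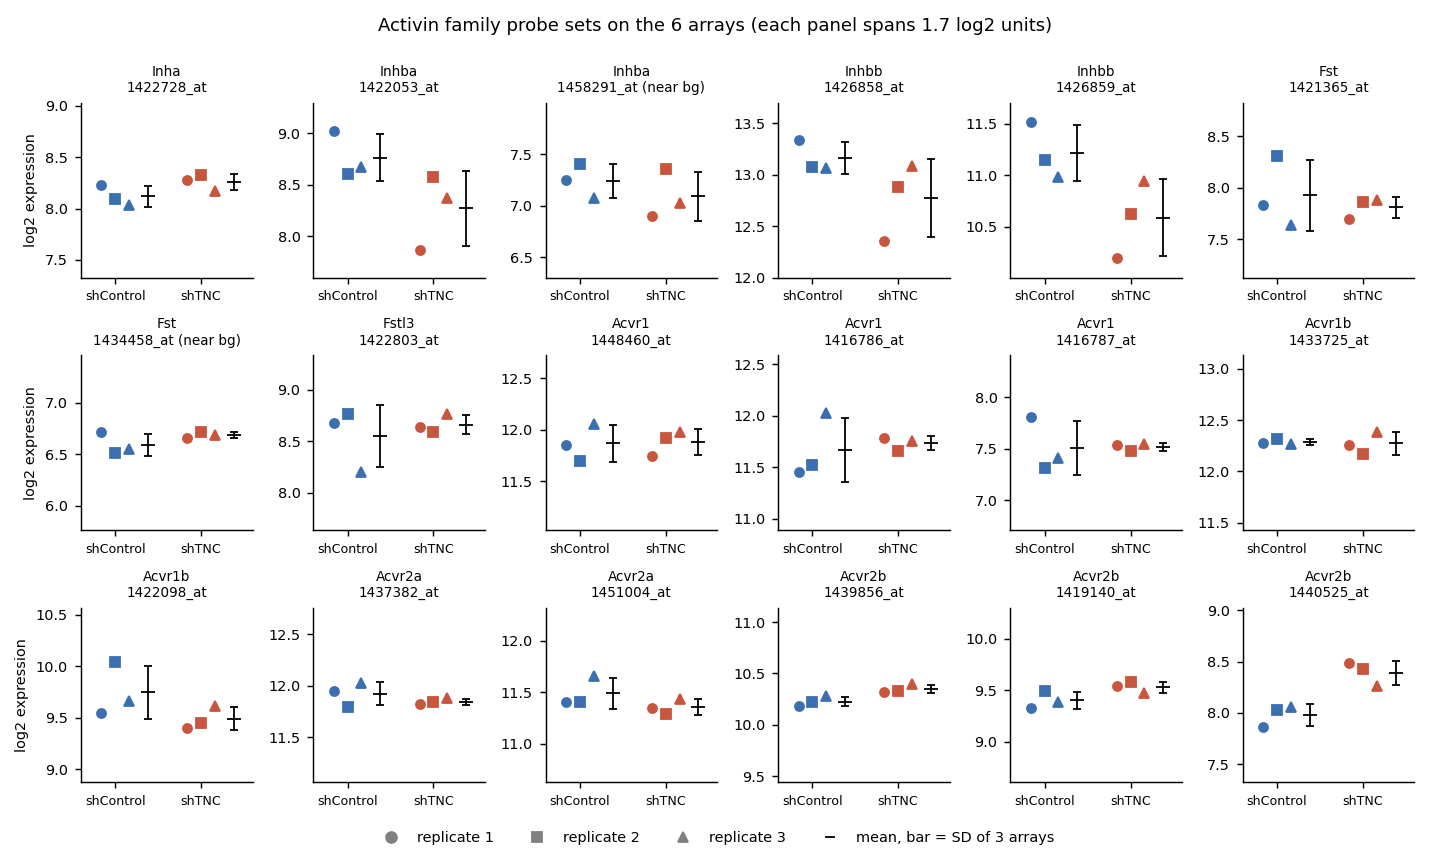
Level (log2, y axis) of each of the 18 activin family probe sets on every array, with shControl in blue and shTNC in red, a marker shape for each replicate, and each group mean ± SD (n = 3 arrays) beside the points. Inhbb and Inhba reach their lowest values on shTNC replicate 1, and Acvr2b 1440525_at has all 3 shTNC arrays above all 3 shControl arrays.

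Inhbb, the βB subunit, is covered by a pair of probe sets, and both had lower means in shTNC. On the brighter probe set (1426858_at) the level was 13.34, 13.08 and 13.07 on the shControl arrays and 12.36, 12.88 and 13.09 on the shTNC arrays. The groups overlapped there, because shTNC replicate 3 lay above 2 of the shControl arrays, and the low array was shTNC replicate 1. The difference was -0.39 ± 0.18 (n = 3 per group), with an interval from -0.80 to 0.03, a limma p of 0.065 and an adjusted p of 0.41. On the other Inhbb probe set (1426859_at) the level was 11.51, 11.15 and 10.98 in shControl and 10.20, 10.62 and 10.94 in shTNC. All 3 shTNC arrays lay under all 3 shControl arrays, with a gap of 0.043 between the groups. The difference was -0.63 ± 0.20, with an interval from -1.09 to -0.16, which is a ratio of 0.647, at a limma p of 0.014 and an adjusted p of 0.29. In a sorted population, fewer cells that express a gene and less of its RNA per cell cannot be told apart.

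Inhba, the βA subunit, was lower on its probe set above background (1422053_at). Its level was 9.02, 8.60 and 8.67 in shControl and 7.87, 8.57 and 8.37 in shTNC. The groups were separated by a gap of 0.030, and shTNC replicate 1 was again the lowest array. The difference was -0.49 ± 0.19, with an interval from -0.93 to -0.06, a limma p of 0.030 and an adjusted p of 0.34. A second Inhba probe set (1458291_at) lay near background on all 6 arrays and differed by -0.15 ± 0.14 with overlapping groups. Inha, the inhibin α subunit (1422728_at), had levels of 8.23, 8.09 and 8.03 in shControl and 8.28, 8.33 and 8.17 in shTNC. These groups overlapped, with a difference of 0.14 ± 0.09 and an interval from -0.08 to 0.35.

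The weight of single arrays in the β subunit differences was uneven. With shTNC replicate 1 left out, the difference of Inhbb was -0.18 on 1426858_at and -0.43 on 1426859_at, and that of Inhba was -0.29. The limma p was then 0.046 for Inhbb 1426859_at and 0.096 for Inhba. Leaving out shControl replicate 1, the highest array for both genes, gave -0.48 for Inhbb 1426859_at at a limma p of 0.056 and -0.37 for Inhba at a limma p of 0.112. Leaving out shTNC replicate 3 moved Inhbb the other way, to -0.54 at a limma p of 0.016 on 1426858_at and -0.81 at 0.0035 on 1426859_at. The sign of the difference was negative for both genes whichever array was left out.

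**Figure D2:**
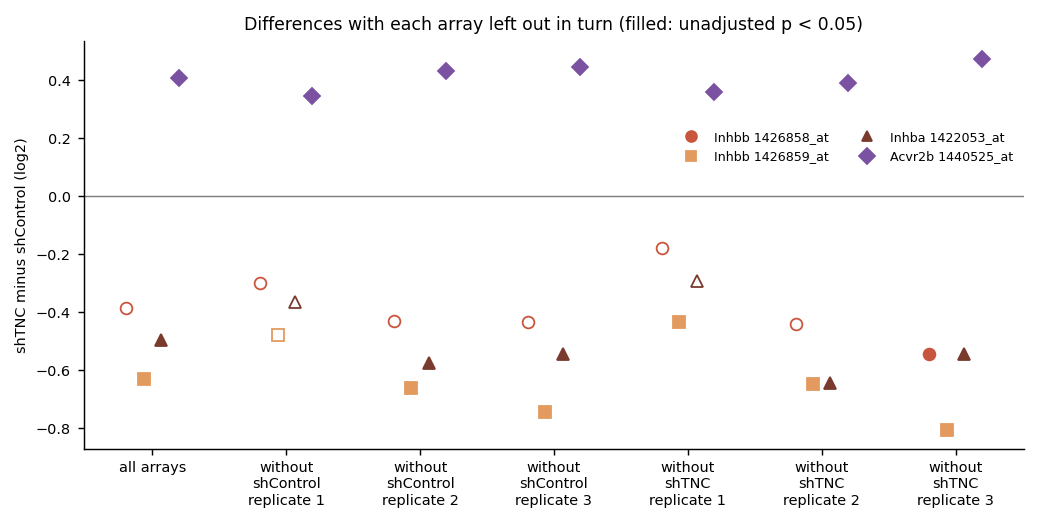
Difference between groups (shTNC minus shControl, log2, y axis) for the 2 Inhbb probe sets, Inhba and Acvr2b 1440525_at with all arrays and with each of the 6 arrays left out in turn (x axis), where filled symbols mark a limma p under 0.05. Inhbb 1426858_at reaches -0.18 without shTNC replicate 1, and Acvr2b stays between 0.34 and 0.47.

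The follistatins, which would limit activin outside the cell, differed little against their spread. Fst above background (1421365_at) had levels of 7.83, 8.31 and 7.64 in shControl and 7.69, 7.86 and 7.88 in shTNC, with overlapping groups. Its difference was -0.12 ± 0.16 with an interval from -0.49 to 0.26, and it turned to 0.08 without shControl replicate 2. A second Fst probe set (1434458_at) lay near background on every array and differed by 0.10 ± 0.09. Fstl3 (1422803_at) had levels of 8.67, 8.77 and 8.21 in shControl and 8.64, 8.59 and 8.76 in shTNC. Its difference was 0.11 ± 0.15 with an interval from -0.23 to 0.45, and it turned to -0.06 without shControl replicate 3, the lowest array.

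Type I receptors transmit the signal after the ligand has bound a type II receptor. Acvr1b, the activin type I receptor also named ALK4, had levels of 12.28, 12.32 and 12.27 in shControl and 12.26, 12.17 and 12.39 in shTNC on its brighter probe set (1433725_at). The groups overlapped with a difference of -0.01 ± 0.09, and the interval from -0.22 to 0.19 bounds it on both sides. On its other probe set (1422098_at) the level was 9.55, 10.04 and 9.66 in shControl and 9.40, 9.45 and 9.61 in shTNC, a difference of -0.26 ± 0.14 with overlapping groups. That difference was -0.11 without shControl replicate 2, which was the highest array. Acvr1, the type I receptor also named ALK2, which binds BMPs as well as activins, differed by 0.01 ± 0.12 (1448460_at), 0.06 ± 0.15 (1416786_at) and 0.01 ± 0.13 (1416787_at), with overlapping groups on all 3 probe sets. The third of these lay above the background level on 3 of 6 arrays.

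Acvr2b, one of the pair of type II receptors that bind activins first, had higher means in shTNC on all 3 of its probe sets. On 1440525_at the level was 7.86, 8.03 and 8.06 in shControl and 8.49, 8.42 and 8.26 in shTNC. Each shTNC array lay above each shControl array, with a gap of 0.20. The difference was 0.41 ± 0.10, with an interval from 0.17 to 0.64 and a ratio of 1.32, at a limma p of 0.0036 and an adjusted p of 0.23, the lowest of the family. It ranged from 0.34 to 0.47 when each array was left out in turn, at limma p values from 0.0035 to 0.017. This is the dimmest of the Acvr2b probe sets. On the brightest (1439856_at) the level was 10.19, 10.22 and 10.28 in shControl and 10.32, 10.33 and 10.40 in shTNC. Those groups did not overlap either, but the gap was 0.042 and the difference was 0.12 ± 0.08 with an interval from -0.07 to 0.31. The third probe set (1419140_at) differed by 0.13 ± 0.09 with overlapping groups, so the size of the Acvr2b difference depended on the probe set.

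Acvr2a, the other activin type II receptor, had lower means in shTNC on both of its probe sets, with overlapping groups. Its level on 1437382_at was 11.95, 11.80 and 12.02 in shControl and 11.82, 11.84 and 11.88 in shTNC, a difference of -0.08 ± 0.09 with an interval from -0.29 to 0.13. On 1451004_at the difference was -0.13 ± 0.10. Acvr2a and Acvr2b therefore had opposite signs on every probe set assigned to 1 of them alone, and the difference between them was not tested. The probe set annotated to both Acvr2a and Orc4 (1457451_at) went the other way, with levels of 8.18, 8.23 and 8.22 in shControl and 8.40, 8.38 and 8.35 in shTNC. All 3 of its shTNC arrays lay above the shControl arrays, and the annotation does not say which gene it reads.

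Over the family, 2 of 18 probe sets were lower and 1 was higher in shTNC at an unadjusted p under 0.05. The same held for 6.30% and 6.66% of all probe sets. By the brightest probe set of each gene, 1 of 9 members was lower and 0 were higher, where 7.12% and 4.54% of all genes were. The 3 shTNC arrays lay below the 3 shControl arrays for 2 member probe sets and above them for 2, against 10.5% and 8.92% of all probe sets. At an adjusted p under 0.05 in limma, 0 member probe sets passed, with 3 at an unadjusted p under 0.05, and 0% of all probe sets passed. The study's thresholds ask for a log2 difference over 0.75 together with an unadjusted p under 0.05 and, after adjustment, one under 0.25. The authors gave them for secreted-protein genes raised in ECs of metastatic lungs, not for this comparison. Here they were applied in either direction. Again 0 members passed them, and 0.182% of all probe sets did. Acvr2b 1440525_at met the limits on both p values but not that on the size. The median difference of the 9 genes was -0.01, beside -0.03 over all genes. The differences of Inhbb and Inhba lay low in the distribution over all probe sets, where 0.262% were as low as Inhbb 1426859_at, 1.91% as low as Inhbb 1426858_at and 0.769% as low as Inhba 1422053_at. For Acvr2b 1440525_at, 2.69% of all probe sets were as high. These shares rank the differences without regard to their SE. The SE was 0.20 for Inhbb 1426859_at, 0.18 for Inhbb 1426858_at, 0.19 for Inhba 1422053_at and 0.10 for Acvr2b 1440525_at. Its median over all probe sets was 0.11.

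**Figure D3:**
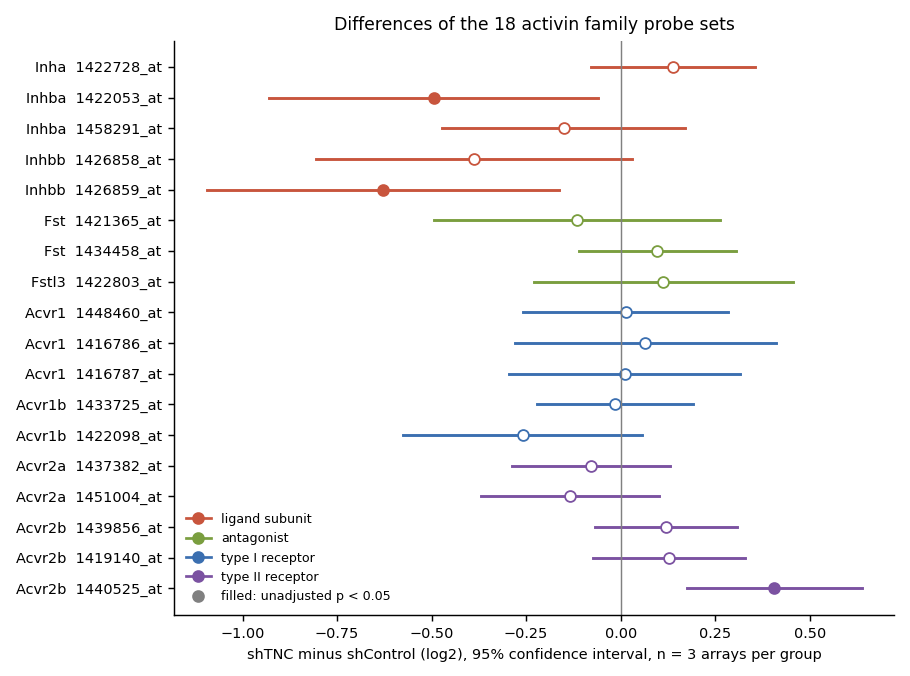
Difference between groups (shTNC minus shControl, log2, x axis) with its 95% confidence interval for the 18 probe sets, coloured by role, where filled symbols mark a limma p under 0.05 and n = 3 arrays per group. Inhba 1422053_at and Inhbb 1426859_at lie below 0 with intervals that leave it out, and Acvr2b 1440525_at lies above it at 0.41.

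Between the β subunits and Acvr2b, levels over the arrays were negatively related to a degree that depended on the probe set. Inhbb 1426859_at had a Pearson r over 6 arrays of -0.95 with Acvr2b 1440525_at, -0.80 with 1419140_at and -0.64 with 1439856_at, the brightest Acvr2b probe set. For Inhbb 1426858_at the same values were -0.85, -0.72 and -0.45, and for Inhba 1422053_at they were -0.83, -0.69 and -0.64. The r of -0.95, the largest in size of these, had a Spearman rho of -1. It was -0.93 without shControl replicate 1 and shTNC replicate 1, the arrays farthest from the Inhbb median, and -0.95 between deviations from the group means. Inhba 1422053_at had an r of 0.90 with Inhbb 1426859_at and of 0.92 with Inhbb 1426858_at, and the rho was 0.89 and 0.60. Without the same 2 arrays these values of r were 0.11 and -0.17, so the relation of Inhbb with Inhba rests on those arrays. These relations were picked from 153 pairs of member probe sets, for genes already seen to differ between the groups, and the values of r over all arrays include that difference, so they are a description and were not tested.

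Over the 6 arrays, the genes most like the brightest Inhbb probe set, among 13435 genes above background, were Csf2rb2, a subunit of the receptor for interleukin 3 (r = 0.98), and Cebpd, a C/EBP transcription factor (r = 0.98), followed by Tcp1, Clca2 and Qpctl (each r = 0.97). Csf2rb2 spanned 1.01 log2 units over the arrays and Cebpd 0.83, while Tcp1, a chaperonin subunit, spanned 0.10. Most like Inhba were Rsph9, a part of the radial spokes of cilia, at an r of 0.998, and then Zfp689, Pum3, Sytl1 and Pcbd1 (each r = 0.98). No gene stood in both groups of 5. These are descriptions over 6 points, ranked out of all the genes above background.

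Markers of the sort and of other cell types were set beside these results. Pan-endothelial markers, all 12 above background, had a mean level between 13.46 and 13.53 in shControl and between 13.47 and 13.49 in shTNC, and 0 of 12 differed at a limma p under 0.05. Pecam1, which encodes the CD31 antigen used in the sort, differed by -0.03 ± 0.08, and Cdh5, which encodes VE-cadherin, by -0.04 ± 0.08. Mesothelial markers (4 of 6 above background, Wt1 and Lrrn4 near it) had a mean between 7.72 and 7.86 in shControl, against 8.98, 7.79 and 8.41 in shTNC. The highest of these arrays was shTNC replicate 1, which had the lowest Inhbb and Inhba. One of the 6 mesothelial markers, Gpm6a, was higher at a limma p under 0.05. Macrophage markers (11 of 12 above background, Adgre1 near it) had means between 9.37 and 9.45 in shControl and between 9.07 and 9.33 in shTNC. Of the 12, 3 were lower (Mrc1, Chil3 and Cd14) and 0 higher at a limma p under 0.05. The lowest macrophage mean was on shTNC replicate 2, for which Inhbb and Inhba were not the lowest. Proliferation genes, all 9 that could be matched, were lower at a limma p under 0.05, and their means spanned 10.73 to 11.20 in shControl and 10.28 to 10.38 in shTNC. Like the pan-endothelial and mesothelial lists, the remaining lists had overlapping ranges of their means, given with shControl first. They were 9.90 to 10.35 and 10.23 to 10.61 for 9 fibroblast markers, 8.99 to 9.10 and 9.06 to 9.30 for 8 pericyte and smooth muscle markers, 8.65 to 9.46 and 8.58 to 9.76 for 9 epithelial markers, and 7.80 to 8.10 and 7.89 to 8.06 for 4 neutrophil markers. At a limma p under 0.05, 1 fibroblast marker (Mfap4, 0.74 ± 0.32) and 1 smooth muscle marker (Myh11, 0.50 ± 0.10) were higher, 1 epithelial marker (Foxj1, near background, -0.22 ± 0.09) was lower, and 0 neutrophil markers differed, all named after their values were seen. Over all genes, 7.12% were lower and 4.54% higher at a limma p under 0.05. The part of any of these marker lists in the activin family differences was not tested. On the first principal component of all probe sets, shControl replicate 2 stood apart at 43.6, with the other shControl arrays at 11.1 and -0.25 and the shTNC arrays from -21.1 to -16.1. Without that array, Inhbb differed by -0.43 on 1426858_at and by -0.66 on 1426859_at, and Inhba by -0.58.

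**Figure D4:**
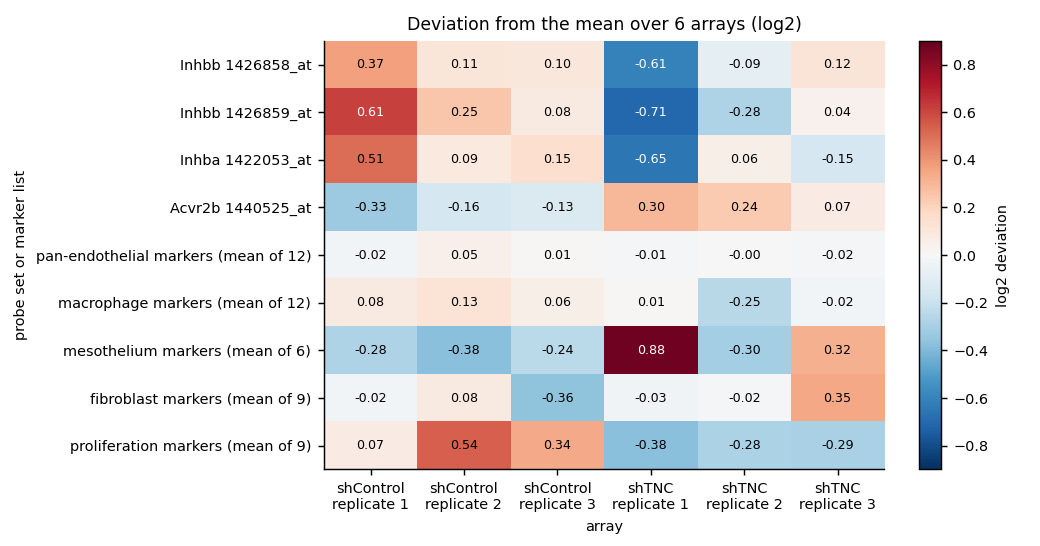
Deviation from the mean over the 6 arrays (log2, colour and printed value) for 4 activin family probe sets and the mean level of 5 marker lists (rows) on each array (columns). shTNC replicate 1 has the lowest Inhbb and Inhba and the highest mesothelial mean, and the pan-endothelial mean deviates by at most 0.05 on any array.

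Other genes of the activin pathway were described by role, with 38 of 40 matched, 31 of them above background, and each gene represented by its brightest probe set. Of the 38, 3 were lower and 2 higher in shTNC at a limma p under 0.05, none passed an adjusted p of 0.05 and the median difference was -0.03. Over all genes 7.12% were lower and 4.54% higher, so these counts are near the background. Lefty1, an antagonist of Nodal signalling, was higher with levels of 8.98, 9.11 and 9.06 in shControl and 9.46, 9.36 and 9.50 in shTNC. These groups did not overlap, and the difference was 0.39 ± 0.09 at a limma p of 0.0020 and an adjusted p of 0.21. Bambi, a pseudoreceptor that dampens TGF-β and activin signalling, was lower with levels of 10.97, 11.12 and 10.98 in shControl and 10.72, 10.67 and 10.70 in shTNC. Its difference was -0.33 ± 0.08, at a limma p of 0.0048 and an adjusted p of 0.24, with no overlap.

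Smad7, the inhibitory SMAD that is induced by TGF-β family signals and blocks type I receptors, was higher on both of its probe sets. On the brighter one (1423389_at) the level was 12.95, 12.89 and 13.04 in shControl and 13.28, 13.25 and 13.24 in shTNC, a difference of 0.29 ± 0.08 at a limma p of 0.0077 and an adjusted p of 0.26. On the other (1443771_x_at) it was 10.92, 10.81 and 10.75 in shControl and 11.47, 11.65 and 11.69 in shTNC. That difference was 0.78 ± 0.10, a ratio of 1.72, at a limma p of 3.9e-05 and an adjusted p of 0.18. It passed the study's thresholds, which the authors gave for another comparison. The name of this probe set marks it as one whose probes may also match other transcripts. Of 62 further probe sets of the pathway and signature genes, it was the only one to pass them, and 5 of the 62 were higher and 0 lower at a limma p under 0.05, where 6.66% and 6.30% of all probe sets were.

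Smad2, which carries the activin signal, differed by -0.24 ± 0.09 at a limma p of 0.030 and an adjusted p of 0.34, with no overlap. A second Smad2 probe set (1442062_at) differed by 0.18 ± 0.12 the other way with overlapping groups. Smad4, the partner that SMAD2 joins, differed by -0.06 ± 0.10. Inhbe, which encodes a further β subunit, differed by -0.24 ± 0.09 at a limma p of 0.025 and an adjusted p of 0.32, at a level near background. Among the other ligands Nodal differed by 0.27 ± 0.23 on its brightest probe set and by 0.34 ± 0.10 on the other (1422057_at), at a limma p of 0.0084 and an adjusted p of 0.27 with no overlap, while among the other antagonists Wfikkn1, which binds myostatin and GDF11, differed by 0.35 ± 0.17. The co-receptor Cfc1 differed by -0.19 ± 0.16, and Tdgf1, another co-receptor, by 0.26 ± 0.14 at a level near background. Of the other receptors, Acvrl1 differed by 0.05 ± 0.08 and Bmpr2 by 0.10 ± 0.09. Of the dimmer Bmpr2 probe sets, 1441652_at differed by 0.50 ± 0.15 at a limma p of 0.010 and an adjusted p of 0.27 with overlapping groups, and 1419616_at by 0.02 ± 0.08. The precursor-cleaving proteases Furin and Pcsk5 differed by -0.06 ± 0.12 and -0.05 ± 0.14. Zfyve9 and Zfyve16, FYVE-domain proteins of endosomes, differed by 0.16 ± 0.14 and 0.17 ± 0.15. Of the nuclear partners, Ski and Skil differed by 0.11 ± 0.09 and 0.11 ± 0.15. Pmepa1, which limits SMAD2 and SMAD3 activation, differed by -0.19 ± 0.10. By the brightest probe set, each gene of this paragraph apart from Smad2 and Inhbe had a limma p above 0.05. Several of these differences moved widely when each array was left out in turn, over a range of -0.35 to -0.03 for Cfc1, 0.12 to 0.38 for Tdgf1, 0.05 to 0.48 for Nodal, 0.21 to 0.50 for Wfikkn1 and 0.06 to 0.31 for Zfyve9.

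The study also defined 20 genes induced by activin B in human breast cancer cells, on samples other than these. Their mouse counterparts were read here in ECs, a cell type in which the list was not made. All 20 were matched, 16 above background, and 2 were lower and 3 higher in shTNC at a limma p under 0.05, with a median difference of 0.03. Over all genes 7.12% were lower and 4.54% higher. Bambi and Dusp2 were lower, and Id2, Smad7 and Cd24a were higher. The list shares Bambi, Smad7 and Skil with the pathway list above. Dusp2, a phosphatase of MAP kinases, differed by -0.27 ± 0.12 at a limma p of 0.0499 and an adjusted p of 0.39. Id2, an inhibitor of helix-loop-helix transcription factors, had levels of 9.31, 9.51 and 9.80 in shControl and 10.03, 10.27 and 10.11 in shTNC (1435176_a_at). These groups did not overlap, and the difference was 0.60 ± 0.14 at a limma p of 0.0022 and an adjusted p of 0.22. The dimmer Id2 probe sets differed by 0.04 ± 0.13 (1422537_a_at) and -0.02 ± 0.11 (1453596_at, near background). Cd24a, a glycoprotein of the cell surface, differed by 0.26 ± 0.08 at a limma p of 0.012 and an adjusted p of 0.28, and by 0.26 on each of its other probe sets (1416034_at and 1437502_x_at). The limma p was 0.061 on 1416034_at (adjusted p 0.41) and 0.024 on 1437502_x_at (adjusted p 0.32). The name of 1437502_x_at marks it as one whose probes may also match other transcripts.

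**Figure D5:**
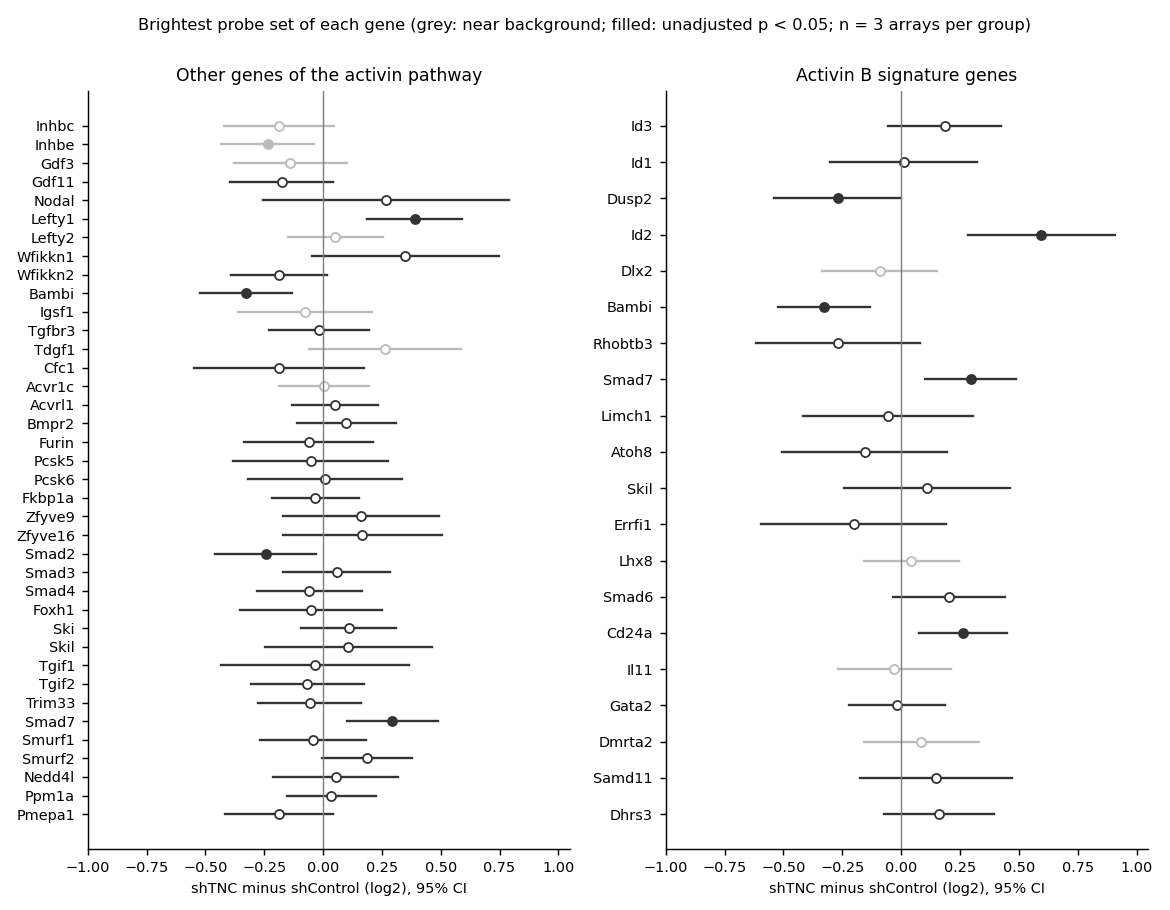
Difference between groups (shTNC minus shControl, log2, x axis) with its 95% confidence interval for the brightest probe set of 38 other activin pathway genes (left) and of the 20 activin B signature genes (right), where grey marks genes near background, filled symbols a limma p under 0.05 and n = 3 arrays per group. Lefty1, Smad7, Id2 and Cd24a lie above 0 and Bambi, Smad2 and Dusp2 below it.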

How the data were processed

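Total RNA of sorted lung ECs was hybridised to 6 Affymetrix mouse arrays, 3 per group, after biotin labelling of 2 ng of RNA with a 3' IVT kit. RMA in Chipster is the normalisation that the authors name. What they deposited is a log2 value for each probe set, used here without change, and whether it is plain RMA output was not settled. Probe sets were named through the platform annotation. No raw files, detection calls or sample columns other than these 6 were used, and the number of arrays limits the precision.

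All 45101 probe sets were fitted by lmFit and eBayes of limma (version 3.58.1, R version 4.3.3) with group as the only term, and two-sided p values were adjusted by Benjamini-Hochberg over the whole table, with a threshold of 0.05. A gene counted in a list was represented by its brightest single-symbol probe set. The steps were tested on simulated data first. Sequences are RefSeq windows of GRCm38.p6, without Fst.

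Named genes were all 9 members with every probe set, pathway and signature genes with an unadjusted p under 0.05 or among the 2 largest absolute differences of their role, the 5 genes most correlated with Inhbb and with Inhba, and up to 3 sort markers. Markers named from the lists of other cell types lie outside that rule and were picked after their values were seen. The members and lists were chosen with earlier results of these data known. Of the list entries, 136 of 141 were matched, and the others were not analysed here. There were 14 alternatives: each of the 6 arrays left out, a replicate block, array weights, robust eBayes with an intensity trend, quantile normalisation, median centring, a filter on probe sets near background, and genes taken by a single probe set or by the mean of their probe sets.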

Additional observations from a re-analysis of the deposited data

How the results depend on the processing

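In each of the 14 alternatives 0 members passed an adjusted p of 0.05. Taking genes by a single probe set left only the brightest of each, and the mean of their probe sets was counted by gene. Of the 18 probe sets, 12 kept the sign of their difference wherever they were fitted, Inhbb, Inhba, Acvr2a and Acvr2b among them. Probe sets of Fst, Fstl3, Acvr1 and Acvr1b turned sign in at least 1 alternative. With array weights Acvr1 1416787_at was -0.062. With the mean of a gene's probe sets Pcsk5 was 0.11 and Smad4 0.060, 4 pathway genes were higher at a limma p under 0.05, and probe sets were not counted. With 1 signature gene lower in each, array weights, an intensity trend with robust eBayes and leaving out probe sets near background moved the count of 2, and the trend gave 5 signature genes higher. The same replicate numbers stand in both groups, and the labels do not say whether they pair the arrays. Correlations of same-numbered deviations were -0.085, 0.041 and 0.10, and those of unlike-numbered deviations ranged from -0.11 to 0.074. With 3 arrays per group these values cannot settle whether the arrays are paired. A replicate block left 1 member probe set lower, Inhbb 1426859_at at a limma p of 0.028, and 4 pathway genes higher.

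With each array left out in turn, member probe sets were lower in 1 to 3 cases and higher in 1 to 2, and the members' median ranged from -0.072 to -0.00026. Pathway genes were lower in 1 to 5 cases and higher in 2 to 3, and signature genes lower in 1 to 3 and higher in 2 to 5. The fewest lower members came without shControl replicate 1 or shTNC replicate 1, and the most lower pathway genes and higher signature genes without shControl replicate 3. Differences that turned sign in these runs ranged from -0.26 to 0.075 for Fst 1421365_at, -0.059 to 0.22 for Fstl3, -0.072 to 0.11 for Acvr1 1448460_at, -0.041 to 0.24 for Acvr1 1416786_at, -0.089 to 0.16 for Acvr1 1416787_at, -0.072 to 0.036 for Acvr1b 1433725_at, -0.16 to 0.11 for Pcsk5 and -0.050 to 0.21 for Skil. The cause of these shifts was not tested.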
